A study of Mus musculus with 12 samples.

Results

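MED1 is a subunit of Mediator, and ChIP-seq was used to map where it sat on chromatin before and 2 h after 4OHT was given to mouse embryonic stem cells with a conditional RAF kinase. The data are 4 of the 12 samples of the series: the MED1 libraries of clones a and b, untreated (0 h) and after 2 h. All cells were E14tg2a cells of the 129SV background that stably carried cRAF-ErT2, in which the kinase RAF is joined to a hormone-binding domain that 4OHT engages; the stated purpose of 4OHT was to switch on ERK signalling. They were grown in serum with LIF and 2 µM Chir99021. They were then moved for 24 h to serum with LIF and 250 nM PD173074, an inhibitor of FGF receptors, before 250 nM 4OHT was added to the 2 h group; untreated cells received no 4OHT. Chromatin was fixed with 1% formaldehyde and 2 mM disuccinimidyl glutarate and precipitated with an antibody to MED1. Each group is 2 clones, and no vehicle-treated or cassette-free library is used here, so 4OHT, 2 h of time and ERK activation cannot be told apart. Peaks of the 4 lists that overlapped by at least 1 bp were merged into 65291 regions, all of which are described here. The 4 libraries labelled MED24, another Mediator subunit, gave 66123 regions.

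Mediator is a large complex that links transcription factors bound at enhancers and promoters to RNA polymerase II. MED1 is the subunit through which nuclear receptors and several other activators contact the complex, and dense MED1 signal is commonly used to mark strong enhancers of embryonic stem cells. ERK, the last kinase of the RAF cascade, phosphorylates transcription factors, induces the AP-1 genes (Fos and Jun families) and the feedback inhibitors of the Sprouty and dual-specificity phosphatase families, and moves mouse embryonic stem cells out of naive pluripotency.

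A region was called gained if both 2 h libraries and neither 0 h library had a peak in it, lost in the opposite case, and retained if all 4 libraries had one; all other regions are mixed. Gained regions numbered 11484 (17.6% of all 65291), lost regions 4508 (6.90%), retained regions 20152 and mixed regions 29147. With each library left out in turn, fewer lists make a call, and gained regions numbered up to 18411 (without 2 h clone a) and lost regions up to 9915 (without 0 h clone b). With classes made within each clone and averaged, they numbered 19845 and 12429. At gene starts, the promoters with a gained region carried a shared sequence feature more often than other promoters. RefSeq gives 300-base windows, from 250 bases before to 50 after the start, for 17492 of the 21887 protein-coding genes used (21263 windows, build GRCm38.p6, which mm10 stands for). The AP-1 motif TGANTCA, searched on both strands, was present in 69 of the 253 windows that overlapped gained regions only, or 27.3%, at 65 genes. It was present in 6.40% of 125 windows with lost regions, 3.76% of 9504 windows with retained regions, 9.92% of 9598 windows with no MED1 region and 6.99% of all windows. The stretches below are from 6 of the 65 genes, those with the highest MED1 fold ranks at 2 h among the printable stretches that lie outside every gene span, without unnamed gene models and 1 olfactory receptor gene. Each is read 5′ to 3′ along the gene's strand, and the capitals mark an AP-1 match; Sprr1a holds a second match, left in lower case.
Sprr1a: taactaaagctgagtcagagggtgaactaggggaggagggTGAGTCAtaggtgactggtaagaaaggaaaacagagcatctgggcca
Krtdap: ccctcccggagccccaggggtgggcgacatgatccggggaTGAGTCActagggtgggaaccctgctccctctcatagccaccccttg
Trpv3: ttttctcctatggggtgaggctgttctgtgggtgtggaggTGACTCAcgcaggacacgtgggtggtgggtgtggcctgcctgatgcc
P2rx7: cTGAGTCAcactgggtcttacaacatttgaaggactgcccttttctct
Tnfrsf8: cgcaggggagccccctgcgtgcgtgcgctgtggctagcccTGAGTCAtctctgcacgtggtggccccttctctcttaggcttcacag
Pmch: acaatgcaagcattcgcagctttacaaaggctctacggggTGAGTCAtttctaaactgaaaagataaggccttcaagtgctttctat

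These stretches lie at chr3:92485951-92486037, minus strand (Sprr1a), chr7:30787784-30787870, plus strand (Krtdap), chr11:73267399-73267485, plus strand (Trpv3), chr5:122643677-122643724, plus strand (P2rx7), chr4:145315250-145315336, minus strand (Tnfrsf8) and chr10:88090944-88091030, plus strand (Pmch), in GRCm38.p6. Sprr1a encodes a cornified envelope precursor and Krtdap a keratinocyte differentiation protein, and Trpv3 encodes a cation channel of keratinocytes. P2rx7 encodes an ATP-gated ion channel, Tnfrsf8 the receptor CD30, and Pmch the precursor of melanin-concentrating hormone. None of the 6 windows met a MED1 peak in either 0 h library. At 2 h the peak over the Sprr1a start ranked at percentile 95.9 of all peaks by fold enrichment in clone a and 97.3 in clone b, and its summits lay 24 and 20 bp from the marked match. At Krtdap the percentiles were 94.3 and 96.8, with summits 16 and 1 bp from the match. The Trpv3 peak reached percentiles 96.9 and 92.6, with summits 22 and 8 bp from the match. At P2rx7 they were 87.3 and 92.1 with 73 and 23 bp, at Tnfrsf8 74.7 and 75.9 with 57 and 6 bp, and at Pmch 60.1 and 73.6 with 44 and 0 bp. The windows were chosen for holding a match under a gained region, so these distances are a description with no reference value. Over the 69 windows the median distance from match to the nearest summit was 43 bp in clone a and 32 bp in clone b, and in 32 windows it was at most 50 bp in both clones.

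For contrast, the next lines show retained starts with high MED1 rank that hold the ETS motif CCGGAAG, in capitals. They were taken by the same rule on position, from the windows with the highest mean rank over the 4 libraries.
Gtf3c6: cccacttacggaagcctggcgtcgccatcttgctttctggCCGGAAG
Rraga: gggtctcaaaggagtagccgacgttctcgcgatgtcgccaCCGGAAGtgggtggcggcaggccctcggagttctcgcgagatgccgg

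Gtf3c6 (chr10:40257713-40257759, minus strand) encodes a subunit of the RNA polymerase III factor TFIIIC, and its MED1 region ranked at percentile 99.9 or higher in all 4 lists. Rraga (chr4:86575583-86575669, plus strand) encodes a GTPase of amino acid signalling to mTORC1, with percentiles 99.8 and 99.7 at 0 h and 97.3 and 99.3 at 2 h. ETS matches on either strand were present in 21.8% of retained windows, 7.51% of gained windows, 5.60% of lost windows, 2.35% of windows with no MED1 region and 11.6% of all windows. The classes differ in base composition. The ratio of observed to expected CpG had a median of 0.554 in gained, 0.544 in lost, 0.827 in retained and 0.214 in uncalled windows, and GC content had medians of 58.7%, 56.7%, 63.3% and 48.3%. Among 3313 retained windows no richer in CpG than the upper quartile of the gained ones, AP-1 was present in 5.52% and the ETS motif in 18.1%. Lost windows had a CpG ratio close to that of gained windows and an AP-1 share of 6.40%.

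**Figure D1:**
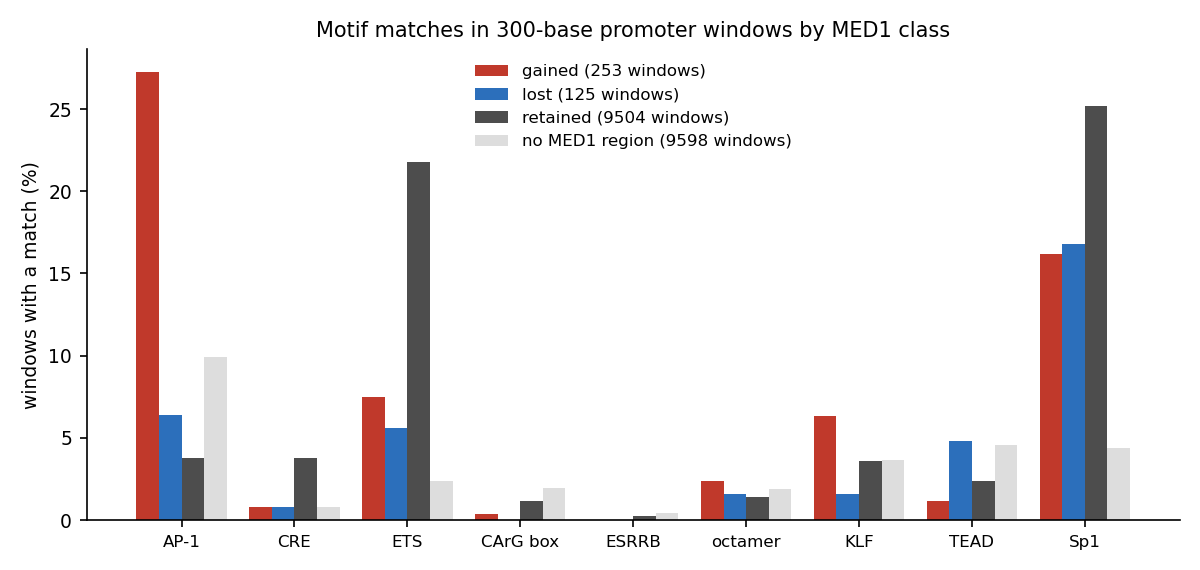
Share of 300-base promoter windows with a motif match (y axis, %) for 9 motifs (x axis), by the MED1 class of the region that overlaps the window; bars are shares of the windows in the key. The AP-1 bar of gained windows stands at 27.3% against 3.76% in retained windows, while ETS and Sp1 matches were most frequent in retained windows (21.8% and 25.2%).

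Counted per library, AP-1 was present in 376 of 10287 promoter windows under a MED1 peak in 0 h clone a and 377 of 10158 in 0 h clone b, or 3.66% and 3.71%. At 2 h it was present in 479 of 10309 windows in clone a and 474 of 10532 in clone b, or 4.65% and 4.50%. Both 2 h libraries lay above both 0 h libraries, and the means of 3.68% ± 0.040 and 4.57% ± 0.10 (SD, n = 2) differed with p = 0.333 in an exact two-sided permutation test, the smallest p that 2 against 2 libraries allow. ETS shares of the same windows were 20.8% and 21.1% at 0 h and 20.9% and 20.5% at 2 h, so the groups overlapped. Other motifs differed less between gained and all windows. The KLF motif GGGTGTGG was in 6.32% of gained and 3.63% of all windows, the octamer ATGCAAAT in 2.37% and 1.66%, and the TEAD motif GGAATGT in 1.19% and 3.38%. The CRE motif TGACGTCA was in 0.791% and 2.23%, the CArG box of serum response factor in 0.395% and 1.52%, and the Sp1 motif GGGGCGGGG in 16.2% and 15.4%. The ESRRB motif TCAAGGTCA was in 71 of all windows and in no gained or lost window. A match is a description of the letters in these windows, and most gained regions lay outside them. The AP-1 share of gained windows was 17.4% with only peaks of −log10 q of at least 10, and 17.2% without the clone a library at 0 h. Classed on its own, clone a gave 18.3% and clone b 13.98%.

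The 2 h libraries held more MED1 peaks, and the added peaks lay away from gene starts. Clone a had 38668 peaks at 0 h and 43949 at 2 h, and clone b had 37483 and 47305. Each 2 h list was longer than each 0 h list (means 38076 ± 838 and 45627 ± 2373, SD, n = 2; exact two-sided permutation p = 0.333). The numbers of summits within 1 kb of a RefSeq gene start were 9849 and 9676 at 0 h and 9856 and 10090 at 2 h in clones a and b, which are close to each other. Their share of all summits was therefore lower at 2 h, at 22.4% and 21.3% against 25.5% and 25.8%, with no overlap between the groups (exact two-sided permutation p = 0.333). Peaks together covered 23.7 and 22.9 Mb at 0 h and 24.9 and 27.4 Mb at 2 h. Read depth is not in the lists, so longer lists at 2 h and deeper or better enriched 2 h libraries cannot be told apart. With the 20000 strongest peaks of each list, which gives lists of equal length, 5847 regions were gained and 4172 were lost.

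Changed calls were rare at gene starts. Of the gained regions 398 (3.47%) lay at a gene start, of the lost regions 212 (4.70%), and of the retained regions 7825 (38.8%). Each library alone called between 4185 and 6522 of the mixed regions. Of the 11156 regions at gene starts, 70.1% were retained, 3.57% gained and 1.90% lost. Of the 26491 regions inside genes away from starts, 23.8% were retained, 20.4% gained and 7.07% lost. The 5455 regions more than 100 kb from any protein-coding gene had the highest shares of both changed classes, 23.8% gained and 11.0% lost. The start table lacks some genes and all of chromosome 18, so some promoters are counted as inside genes or near them.

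**Figure D2:**
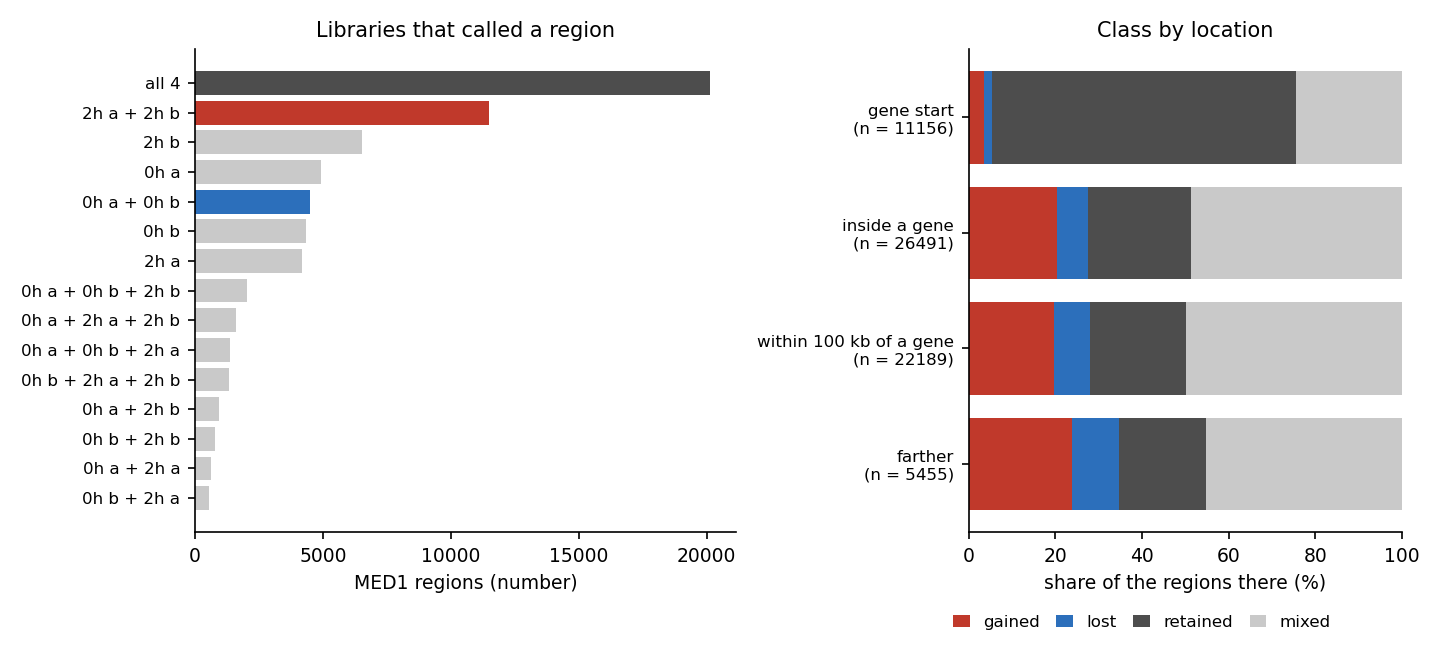
Left, number of MED1 regions (x axis) by the libraries that called them (y axis; a and b are clones), with gained regions in red, lost in blue, retained in dark grey and mixed in light grey. Right, share of each class (x axis, %) among the regions at each location; gene starts are 70.1% retained, and the other 3 locations hold 19.7% to 23.8% gained regions.

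A gained peak had to be called in both 2 h libraries, a rule that by itself leaves out peaks called only once, and its rank is given as a description. In the 2 h lists the peaks of gained regions had median percentiles by fold enrichment of 55.2 (clone a) and 57.8 (clone b). Of these peaks 10.2% and 11.3% ranked above percentile 90 of their list, near the share that all peaks have by definition. In the same lists the shares were 13.3% and 14.2% for peaks of retained regions and 2.08% and 1.76% for those of mixed regions. Peaks of lost regions had medians of 42.2 and 39.1 in the shorter 0 h lists, and 1.5% and 1.61% of them ranked above percentile 90. Peaks of mixed regions had medians of 26.3 and 26.5 at 2 h. Peaks of retained regions ranked at 67.1 and 65.9 at 0 h and 60.7 and 63.6 at 2 h. Gained peaks were narrower than retained ones, with median widths of 349 and 370 bp, as were lost peaks with 334 and 328 bp. Retained peaks had 598 to 644 bp. Mixed peaks were narrower still, with 285 and 284 bp at 0 h and 270 and 275 bp at 2 h. The median distance from a gained region to the nearest retained one was 24.9 kb, to the next gained one 34.8 kb and to the nearest lost one 155 kb. A retained region lay within 10 kb of 29.7% of gained regions and another gained region within 10 kb of 25.6%. Lost regions were at medians of 18.2 kb from the nearest retained, 53.5 kb from the nearest gained and 90.3 kb from the nearest lost region, and the classes differ in number. The labels say MED24 for the other lists, but the names of their peaks include a FLAG tag and a folder named EP300, another cofactor. That they are MED24 lists therefore rests on the labels alone. Peaks of the lists labelled MED24 were found in 76.9% and 84.0% of gained MED1 regions in the 2 h libraries of the clones, and in 9.15% and 7.19% at 0 h. In lost MED1 regions they were found in 77.9% and 74.96% at 0 h and 15.2% and 23.6% at 2 h. Over all MED1 regions the shares were 49.7% and 47.0% at 0 h and 55.9% and 62.3% at 2 h. In retained regions they were 92.5% and 90.9% at 0 h and 93.3% and 95.6% at 2 h.

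The strongest gained regions by fold rank lay mostly inside genes or far from any start. The first was in Nell2, a secreted glycoprotein of neurons (chr15:95275468-95277448), with the highest fold enrichment of each 2 h list, 77.0 (clone a) and 87.004 (clone b), and no peak at 0 h. The second lay more than 100 kb from any gene (chr2:147743908-147745702), with Foxa2 as the nearest start, and had fold enrichments of 60.6 and 70.6. The next lay in Efr3b, which helps anchor a lipid kinase at the plasma membrane (chr12:3970802-3975898; 61.0 and 62.5), and in Itgam, the integrin alpha M chain (chr7:128118367-128120422; 51.7 and 64.5). The others were in Ltbp1, a binding protein of latent TGF-β (chr17:75109649-75111344; 50.8 and 51.4), and 7.36 kb from Brpf3, a scaffold of histone acetyltransferases (chr17:28792496-28793766; 55.5 and 46.5). The lists labelled MED24 had peaks in all 6 regions in both 2 h libraries and in none at 0 h. The strongest lost regions are given by their values in the 0 h lists: near Lgi1 (chr19:38340710-38342281) the 0 h fold enrichments were 22.2 and 18.1, far from any gene on chromosome 6 (chr6:31895869-31898173) 17.2 and 21.8, and in Dock1, an activator of Rac (chr7:134678929-134681059), 16.8 and 16.8. Those in Oc90, in Ninl and near Ccdc43 were between 15.9 and 21.5. All 6 had peaks of the lists labelled MED24 in 2 h clone b and 1 of them also in 2 h clone a, although MED1 had none at 2 h.

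At gene starts, 383 genes had a gained region and 207 a lost one. The starts with the highest gained ranks were those of Sun1, which links the nucleus to the cytoskeleton, and Gsn, the actin-severing protein gelsolin. Sun1 had fold enrichments of 46.3 (clone a) and 46.2 (clone b) at 2 h, with summits 224 and 231 bp downstream of the start, and Gsn had 31.0 and 39.9. Dnah1, an axonemal dynein, had 25.9 and 33.1, and Emp3, a membrane protein, 23.1 and 36.2. Dclk1, Sprr1a, Gimap8, Krtdap, Trpv3 and Dhrs9 followed with values from 13.4 to 27.4. The highest lost start was that of Klk1, a kallikrein protease, with 8.46 and 11.5 at 0 h. Hivep3 had 8.98 and 6.86, Tomm5 of the mitochondrial import complex 7.56 and 7.38, and Tpm1, a tropomyosin, 5.76 and 6.37. Serpina3i, Slc39a2, Acot1, Ccdc170, Ppp1r16b and Gm14279 had between 4.86 and 9.22. Within their own lists the 10 gained starts ranked at percentiles 91.9 to 99.9 and the 10 lost starts at 40.8 to 90.6. Summits of gained peaks at starts had medians of −26 and −23 bp in clones a and b, where minus is upstream. They were widely spread, with quartiles of −289 and 182 bp in clone a and −262 and 209 bp in clone b. Within 250 bp of the start lay 52.7% and 51.8% of them, against 75.2% to 75.6% of retained summits. Medians of retained peaks lay 41 to 48 bp downstream in the 4 libraries. Those of lost peaks lay 52.5 and 14 bp downstream at 0 h.

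Runs of neighbouring gained regions, each within 12500 bp of the next, lay at named loci. The longest run held 12 gained regions over 54.1 kb at Arntl, the circadian clock factor BMAL1, and the next held 11 over 38.0 kb at Ahnak, a large scaffold protein, and Eef1g. A run of 10 lay at Arhgap26 and Spry4, and one of 7 at Nefl. Among the longest runs of lost regions was one of 7 over 24.8 kb at Esrrb, the nuclear receptor of naive pluripotency. Of the 11484 gained regions 3439 were in runs of at least 2, and of the 4508 lost regions 905 were.

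The rank of retained regions was kept at gene starts more than elsewhere. Regions called in all 4 libraries were ranked within each library by the authors' −log10 p, so that 100 is the strongest, and the ranks were compared by Spearman's rho across regions, which is a description because regions are not independent. At the 7825 retained regions at gene starts, rho was 0.844 between the clones at 0 h and 0.858 at 2 h, and 0.757 in clone a and 0.761 in clone b between times. At the 12327 retained regions elsewhere it was 0.846 and 0.858 within a time and 0.487 and 0.493 between times. Agreement between clones was thus alike in both places, and agreement between times was lower away from starts. The difference between gene starts and elsewhere was 0.269 on average over the clones. It was 0.112 when a peak had to cover 50% of its merged region, a setting that leaves 11983 retained regions. Why the difference was smaller there was not tested. The difference was 0.299 when the ends of gene spans counted as starts.

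**Figure D3:**
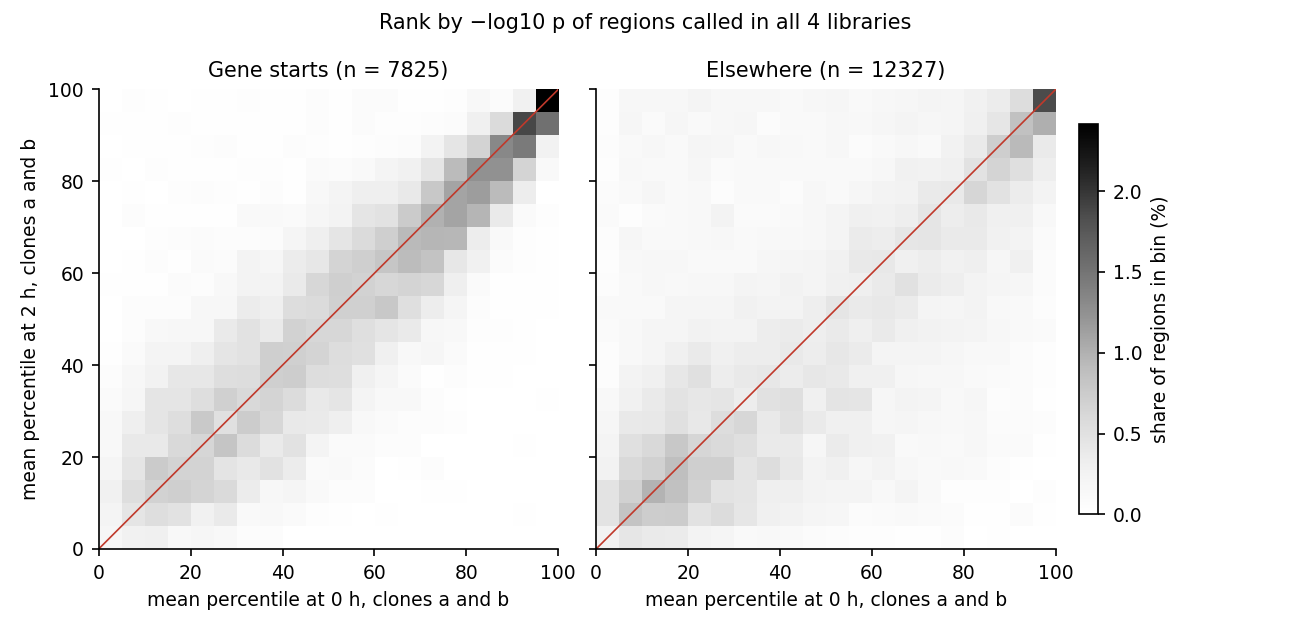
Mean percentile at 0 h (x axis) against 2 h (y axis) of retained MED1 regions, ranked within each library by −log10 p and averaged over clones; the grey scale is the share of regions (%) in each bin of 5 by 5 points and the red line marks equal rank. At gene starts (7825 regions) the density follows the line, and elsewhere (12327 regions) it spreads more widely around the line.

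At least 20 percentile points higher at 2 h in both clones were 1985 retained regions (9.85% of 20152), and 1796 were at least 20 points lower (8.91%). The balance of higher and lower was not stable. With the 2 h and 0 h ranks averaged over clones and not paired, 2950 were higher and 3051 lower, and without 2 h clone a they were 2532 and 2629, without 2 h clone b 2549 and 2602. In 364 regions the clones moved by as much in opposite directions. At gene starts 362 regions were higher and 264 lower, or 4.63% and 3.37% of 7825, and elsewhere 1623 and 1532, or 13.2% and 12.4% of 12327. Split into 5 equal bins by 0 h rank, the lowest bin had 13.4% of starts and 27.0% of other regions higher, and the highest bin had 3.21% and 23.5% lower. Regions higher in rank were also wider at 2 h, with median widths of 468 and 463 bp at 0 h and 783 and 832 bp at 2 h in clones a and b. Regions lower in rank had 776 and 782 bp at 0 h and 409 and 456 bp at 2 h.

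The regions with the greatest gain in rank went from the bottom to the top of the lists. At Plcd3, a phospholipase C (chr11:103093756-103095753, inside the gene), the percentiles were 5.49 and 0.432 at 0 h and 99.4 and 99.2 at 2 h, and the peak widths were 261 and 257 bp and then 1957 and 1938 bp in clones a and b. At the start of Cavin1, which encodes a coat protein of caveolae (chr11:100968009-100971704), the percentiles were 3.51 and 6.75 and then 98.5 and 97.9, with widths of 468 and 637 bp and then 3384 and 3696 bp. The Cavin1 summit also lay 1046 and 1031 bp away from its 0 h position. Regions near Eps8l2 and Map4k4, in Mcph1 and at the start of Ahnak2 reached 92.6 to 99.3 from at most 6.50. Among the regions that ranked lower, the one at the start of Stat3, the transcription factor downstream of LIF (chr11:100938819-100940299), had percentiles of 93.7 and 91.7 at 0 h and 8.64 and 5.21 at 2 h. Stat3 and Cavin1 are neighbours on chromosome 11. Near Lpp, a focal adhesion protein (chr16:25036990-25040917), the percentiles were 95.3 and 98.2 and then 4.87 and 13.0, and the peak width went from 3554 and 3811 bp to 350 and 475 bp. The regions near Mamdc2, Bmper and Xpnpep1 went from 91.1 or more to 12.7 or less. These regions were chosen for their shift in both clones, so that the times do not overlap in them follows from the choice.

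Widths were compared in 15502 retained regions with exactly 1 peak in each library. At 2 h 922 were at least 1.5-fold wider in both clones (5.95%) and 962 at least 1.5-fold narrower (6.21%). At starts 2.26% of 5753 were wider and 1.79% narrower, and elsewhere 8.12% and 8.81% of 9749. Of the widened regions 609 were also higher in rank and none lower, and of the narrowed ones 519 were lower and 2 higher, so width and rank moved together. Besides Plcd3 and Cavin1, the widest gains were near Ankrd66 (660 and 681 bp at 0 h, 4504 and 4534 bp at 2 h), near Hrob (254 and 292, then 1738 and 1843 bp) and in Bex1 (351 and 394, then 2240 and 2262 bp). Besides Lpp, the regions that narrowed most lay near Pramel6 (2257 and 2064, then 260 and 258 bp), on chromosome 6 far from any gene, near Defb41 and near Kit, the receptor of stem cell factor (1256 and 1219, then 235 and 210 bp). Over all lists the median peak width was 438 and 439 bp at 0 h and 408 and 414 bp at 2 h, without overlap between the groups (exact two-sided permutation p = 0.333).

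Summits mostly kept their place. Between times the median distance of summits in the same region was 47 bp in clone a and 50 bp in clone b, and between clones it was 46 bp at 0 h and 43 bp at 2 h, so the change of time added 4 bp. In 5174 regions the clones agreed within 50 bp at each time, and in 265 of these (5.12%) the summit lay over 100 bp away at 2 h in both clones. Starts held 105 of them, or 7.77% of 1352 regions, and other places 160, or 4.19% of 3822. Over all regions compared, median distances between clones at starts were 61 bp at 0 h and 57 bp at 2 h. Elsewhere they were 40 and 37 bp. Between times the medians in clones a and b were 61 and 64 bp at starts and 42 and 43 bp elsewhere. The longest moves were in Rims2 (1664 bp in clone a and 1676 bp in clone b), at the start of Xrn2, a nuclear exonuclease (1520 and 1464 bp), and in Htatip2 (1269 and 1279 bp). In Htatip2 the percentile also went from 17.2 and 5.80 to 98.4 and 99.4. The summit in Pde1b, a phosphodiesterase, lay 1080 and 1114 bp away, and that near 1700001O22Rik 969 and 978 bp.

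Each region was given to its closest protein-coding gene, up to 100 kb away, which placed 59836 of them (91.6%) at 16060 genes. Of these assigned regions 10185 (17.0%) were gained, 3908 (6.53%) lost and 19068 (31.9%) retained, with a median rank shift of −1.34 points over the retained ones. More gained than lost regions were found at 5086 of the 16060 genes (31.7%) and the reverse at 1708 (10.6%), and at 1185 and 313 of the 1823 genes with at least 8 regions. Genes of ERK feedback, which are inhibitors of the pathway that ERK itself induces and the ETS factors Etv1, Etv4 and Etv5, had 57 gained and 5 lost among 191 regions (29.8% and 2.62%), and 15 of 17 genes had more gained than lost and none the reverse. Peaks at these 17 genes numbered 102 in each clone at 0 h and 165 and 164 at 2 h. Spry4, an inhibitor of receptor tyrosine kinase signalling, had 1 and 4 peaks at 0 h, then 21 and 21 at 2 h. Dusp5, a phosphatase of nuclear ERK, had 4 and 5 and then 18 and 17, and Phlda1 had 7 and 6 and then 15 and 20. Dusp4 had 6 and 8 and then 16 and 11. These 4 genes were named for having the largest excess of gained regions, so the direction of their peak counts follows from the choice. Peak counts did not rise at every member. Etv4 had 3 and 2 and then 8 and 7, and Errfi1 3 and 1 and then 5 and 7. In contrast, Dusp6 had 7 and 10 and then 6 and 7, and Etv5 21 and 18 and then 19 and 15. The 3 Etv genes had 6 gained and 2 lost among 33 regions, and the other 14 genes 51 and 3 among 158 (32.3% and 1.90%). The median rank shift of the 54 retained regions of this list was +4.23 points, with 8 higher and 2 lower.

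Immediate early genes, which ERK induces without new protein synthesis, had 33 gained and 5 lost among 138 regions (23.9% and 3.62%), and 11 of 20 genes had more gained than lost and 1 the reverse. That gene was Fos, with 1 gained and 3 lost of 11 regions; its untreated libraries held 10 and 11 peaks, and both treated ones 10. Klf6 had 13 and 13 peaks at 0 h, then 21 and 23 at 2 h, Myc 8 and 8 and then 11 and 12, Ier5 3 and 5 and then 7 and 7, and Klf10 3 and 6 and then 7 and 11. The whole list had 85 and 92 peaks at 0 h, then 123 and 129 at 2 h. Genes of the MAP kinase cascade itself had 16 gained and 16 lost among 125 regions, or 12.8% each, with more gained at 6 of 20 genes and more lost at 5. Their peaks numbered 87 and 80 at 0 h and 75 and 89 at 2 h. The adaptor gene Grb2 had 3 and 4 peaks at 0 h and then 6 and 6, and Map2k1, which encodes the kinase MEK1, 4 and 6 and then 5 and 6. Fgfr2, which encodes an FGF receptor, had 5 and 5 peaks at 0 h and then 2 and 4.

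Naive pluripotency genes had more lost than gained regions, 39 and 24 of 219 (17.8% and 11.0%), and 9 of 15 genes had more lost than gained and 3 the reverse. Their peaks numbered 156 and 164 at 0 h and 122 and 137 at 2 h, so the groups did not overlap. Esrrb had 25 and 25 peaks at 0 h, then 13 and 18 at 2 h, with 7 regions lost and 2 gained. Nanog had 14 and 16 and then 7 and 6, with 4 lost and none gained. Klf5 went the other way with 11 and 12 and then 17 and 24, and Zfp42 had 15 and 19 and then 19 and 19. The median rank shift of 57 retained regions was −9.97 points, with 2 higher and 12 lower. Genes of LIF and STAT3 signalling had 17 lost and 10 gained of 94 regions (18.1% and 10.6%), a median rank shift of −13.2 points over 35 retained regions, and 4 higher and 13 lower. The number of peaks at these genes was similar at both times, at 69 and 67 in untreated cells against 70 and 69 after 4OHT. Tfcp2l1, Klf4 and Gbx2 are also on the naive list, and without them 10 regions were lost and 9 gained of 69, with more lost at 3 of 9 genes and more gained at 3, so 7 of the 17 lost regions are counted in both lists. Socs3, the feedback inhibitor of STAT3 signalling, had 11 and 11 peaks before and then 8 and 8, Tfcp2l1 10 and 10 and then 7 and 5, Spp1 6 and 8 and then 5 and 3, and the receptor gene Lifr 7 and 6 and then 8 and 9. Core pluripotency genes had 29 gained and 9 lost of 185 regions (15.7% and 4.86%), shares near those of all assigned regions. Sox2 had 13 and 15 peaks and then 17 and 15, Jarid2 24 and 21 and then 27 and 25, and Trim71 17 and 15 and then 23 and 29.

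**Figure D4:**
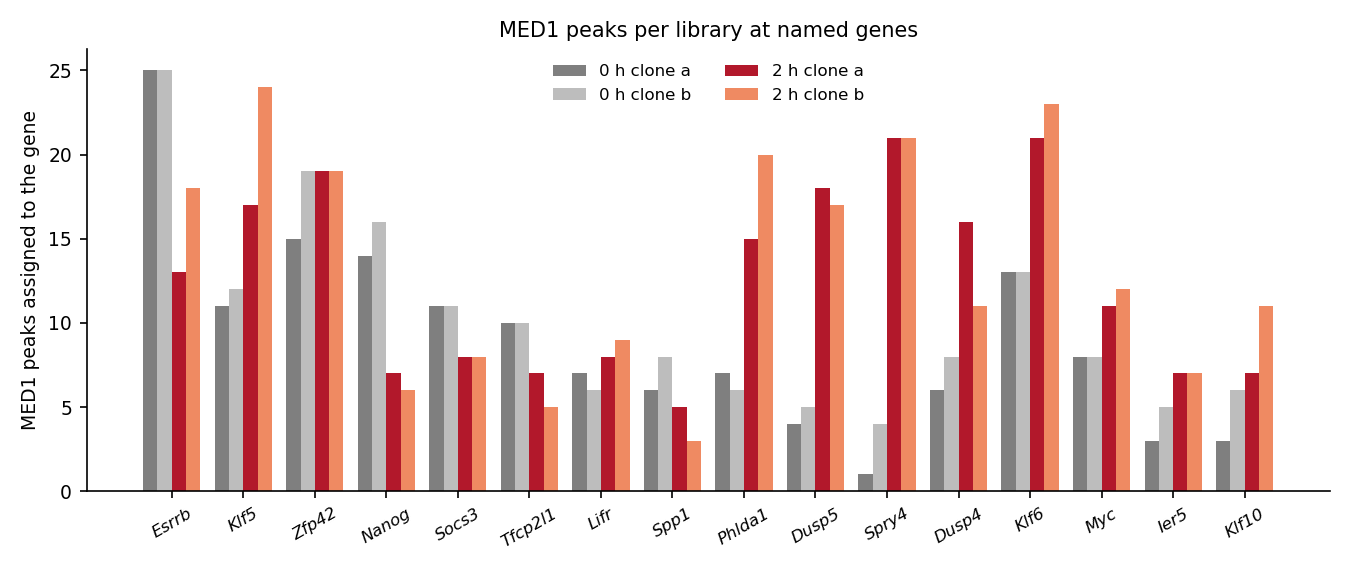
Number of MED1 peaks (y axis) assigned to each named gene (x axis) in the 4 libraries, in grey for 0 h and red for 2 h; from left to right the genes belong to the naive pluripotency, LIF and STAT3, ERK feedback and immediate early lists. Spry4 stands at 1 and 4 peaks at 0 h and 21 at 2 h in both clones, and Nanog at 14 and 16 and then 7 and 6. The genes shown were picked for their difference of gained and lost regions, so the direction of change follows from the choice.

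Lineage genes were mixed. Primitive endoderm genes had 20 gained and 6 lost of 85 regions (23.5% and 7.06%). More gained than lost regions were found at 5 of 14 genes (35.7%, against 31.7% of all genes with a region). Sparc had 4 and 2 and then 11 and 10 peaks, and Pdgfra 2 and 1 and then 3 and 4. Gata4, Gata6, Sox17 and Foxa2 had no gained region. Trophectoderm genes had 22 gained and 10 lost of 108 (20.4% and 9.26%), and all 10 lost ones lay at Tfap2c, an AP-2 transcription factor (22 and 21 peaks, then 10 and 10). Gata3 had 4 and 5 and then 11 and 8. Formative epiblast genes had 12 gained and 10 lost of 97 (12.4% and 10.3%); Pou3f1, the factor OCT6, had 1 and 1 and then 4 and 7 peaks, Grhl2 7 and 5 and then 14 and 13, Foxd3 13 and 12 and then 6 and 7, and Lefty2 8 and 6 and then 1 and 2. Mesendoderm genes had 1 gained and 3 lost of 34 (2.94% and 8.82%). Wnt target genes had 15 gained and 4 lost of 73 (20.5% and 5.48%), with 1 and 1 and then 5 and 5 peaks at Tcf7. Shares of gained regions were near the 17.0% of all assigned regions at neural, Mediator subunit and housekeeping genes. They were 15.5% at neural genes (9 gained and 3 lost of 58) and 19.4% at Mediator subunit genes (21 and 5 of 108, with 10 of the gained at Med13l). Housekeeping genes had 18.6% (11 and 1 of 59). Estrogen receptor target genes, listed because 4OHT is an estrogen receptor ligand, had 17.1% (6 and 1 of 35). With peaks of −log10 q of at least 10, the balance of gained and lost turned to more gained for mesendoderm genes and to more lost for neural genes.

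**Figure D5:**
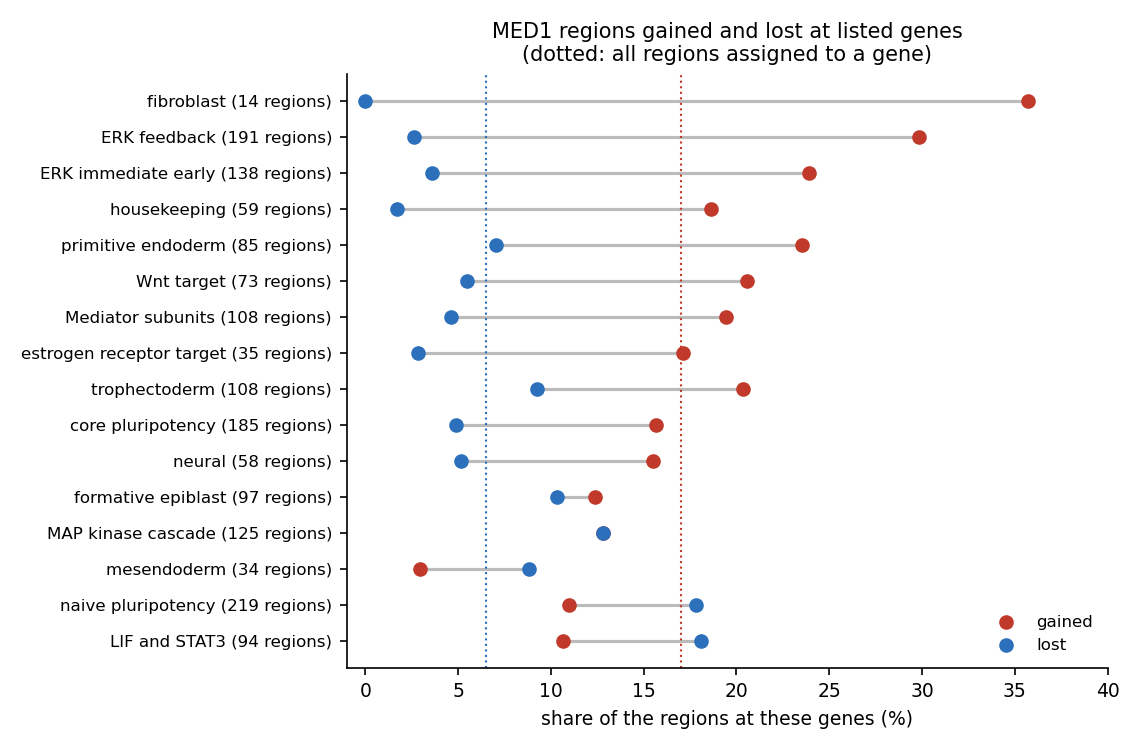
Share of the MED1 regions at the genes of each list (x axis, %) that were gained (red points) or lost (blue points), with the number of regions in brackets and dotted lines at the shares over all regions assigned to a gene (17.0% and 6.53%). Lost exceeded gained at naive pluripotency, LIF and STAT3, and mesendoderm genes.

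The cell type was checked on marker genes. All 8 pluripotency markers had MED1 peaks in all 4 libraries, 103 and 112 in total at 0 h and 88 and 89 at 2 h. The 10 fibroblast markers had 4 and 6 peaks at 0 h, then 9 and 10 at 2 h, and Lum, Dcn and Postn had none in any library. The 14 regions assigned to fibroblast markers held 5 gained (35.7%, against 17.0% of all assigned regions) and 0 lost. All 5 gained fibroblast regions lay at Twist1, Twist2, Col1a1 and Thy1, and the part of other cell types in the results was not tested.

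Among the genes with at least 8 regions, the highest gained shares were at Pofut2, which adds fucose to proteins (6 of 8 regions; 1 and 1 peaks at 0 h, 7 and 8 at 2 h), Cntnap4 and Uaca (6 of 9 each) and Pla2g7, a secreted phospholipase (7 of 11; 3 and 1, then 10 and 10). Ank1, Ap4s1, Baiap2 and Bdkrb2 had 5 of 8. The highest lost shares were at Epb41l1, a membrane skeleton protein (5 of 10; 8 and 8 peaks, then 4 and 2), and LOC115488529 (4 of 8). Cldn14, a tight junction claudin, had 4 lost of 9 (7 and 9 peaks, then 2 and 2), as did AB010352, Agpat3, Agtrap and Rxylt1, and Tfap2c had 10 of 24. The ratio of gained to lost regions ranged over the chromosomes from 1.89 on X to 3.45 on 19, leaving out Y with 46 regions.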

How the data were processed

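MED1 ChIP-seq peak lists, 1 per library, were analysed as deposited. Bowtie2, bedtools, MACS2 and the build mm10 are named in the submitters' processing notes, with versions and settings not given in the sources used here, and the 4 inputs are not analysed here. Each library has a list of its own, none of them pooled. Per the file layout, the deposited columns are a score (10 times −log10 q, rounded down), the fold enrichment (a ratio), the −log10 p-value, the −log10 q-value and the summit, all the authors' own values and compared only as ranks or filters inside 1 list. The MED24 lists give a deposited score without summits; their peak names mention EP300, and the labels were followed. No list gives reads, so depth is unknown, and 2 clones per group limit the precision.

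Lists were merged, classed and ranked with Python 3.11.15, pandas 2.3.3 and numpy 2.4.6; the functions were tested on simulated lists. Gene spans and promoter windows came from RefSeq (GRCm38.p6). An exact two-sided permutation test compared library values; regions were not tested. The permutation test did not use the pairing by clone, and its p cannot go below 0.333 with 2 against 2 libraries. Nothing says how the clones were derived, so the p-values concern these libraries only. Clone letters in the titles pair the libraries. Ranks and summits were compared within clones. Named regions are the most extreme by rank in each class, named starts and genes those with the highest ranks or shares, and up to 4 genes per list those with most gained or lost regions. Some items that these rules name are not reported here. The members, lists and named genes were chosen with earlier results of these data known. Alternatives were −log10 q of at least 10, the top 20000 peaks, 50% cover, summit windows, fold ranks, 30 points, a 250 bp start window, assignment within 20 kb, each library left out and the replicate block; those for the AP-1 share and the rank correlation were added after seeing the data.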

Additional observations from a re-analysis of the deposited data

Results flagged for a closer look

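In 4 quantities the clones moved in opposite directions between 0 h and 2 h, and the difference between clones was not tested. The median position of the summit in its peak, in percent of the width, changed by −0.245 points in clone a and by 0.0642 points in clone b. The median width of MED1 peaks in retained regions was 46 bp smaller at 2 h in clone a (a change of −46 bp) and 13 bp larger in clone b. Peaks at genes of the MAP kinase cascade changed by −12 in clone a and by 9 in clone b. Peaks at formative epiblast genes changed by −10 in clone a and by 1 in clone b. The clone b list at 2 h was the longest of the 4, with 47305 peaks.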

How the results depend on the processing

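The lists hold no reads, so depth limits every call in a way that is not known. Differences in number of peaks, in median width and in the share of summits at gene starts kept their direction under every alternative run. With −log10 q of at least 10, lost regions numbered 2708, retained 11533, higher in rank 1165 and lower 1054, the AP-1 share of gained windows was 17.4% and the rank correlation gap between gene starts and elsewhere was 0.246. With the top 20000 peaks, gained regions numbered 5847, retained 9589, higher 1049 and lower 896, and the gap was 0.267. With 50% cover, retained regions numbered 11983, higher 791 and lower 634, the AP-1 share was 18.5% and the gap 0.112. The gap was 0.293 with summit windows, 0.192 with fold ranks and 0.299 with span ends. With 30 points, 978 regions were lower. With the replicate block (classes within each clone, averaged over this pairing), gained regions numbered 19845, lost 12429 and the AP-1 share was 16.2%, since 1 library per time then makes a call. With no replicate block, 2950 regions were higher and 3051 lower, against 1985 and 1796 with it, so the balance turned, and the gap was 0.272; the balance also turned without either 2 h library. Leaving out each library in turn gave 12854 to 18411 gained and 5924 to 9915 lost regions, a summit difference of 1 to 7 bp, AP-1 shares of 17.2% to 24.0% and a gap of 0.256 to 0.291; fewer lists then make a call, the most gained without 2 h clone a and the most lost without 0 h clone b. The balance of gained and lost percent became 11.8 at mesendoderm and −4 at neural genes with −log10 q of at least 10; causes were not tested.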
